A study of Homo sapiens with 9 samples.

Results

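Transcripts of the lactate dehydrogenase subunit genes *LDHA* and *LDHB* and of 8 glycolytic genes were followed in LNCaP cells, an androgen-responsive line of human prostate cancer cells. The 10 genes are *LDHA*, *LDHB*, *PKM*, *HK1*, *HK2*, *PFKP*, *SLC2A1*, *SLC16A1*, *SLC16A3* and *PDK1*, taken by symbol from the 19984 genes of the table, and all 10 were found and passed the filter on low values. They were chosen with the values of *LDHB* in view, which differed strongly between the deletion clones, so *LDHB* is given below as a description without a test. The study compared 3 clones of LNCaP, each with 3 cultures grown for 48 hours in medium with fetal bovine serum, and each culture gave 1 RNA-seq library. The clones del-4 and del-56 carry a CRISPR-Cas9 deletion of the promoter and the first 2 exons of *EPCART*, a long noncoding RNA gene, and the WT clone is the wild-type control. Each group is therefore a single clone, its p-values measure the spread between cultures of that clone, and the deletion cannot be told apart from other differences between clones. *EPCART* itself is not analysed here.

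Glycolysis turns glucose into pyruvate in the cytosol. Glucose enters through transporters, is trapped by hexokinases, is committed by phosphofructokinase and leaves the pathway as pyruvate made by pyruvate kinase. Lactate dehydrogenase is a tetramer of *LDHA* and *LDHB* subunits that interconverts pyruvate and lactate, and tetramers rich in *LDHA* are known for making lactate while those rich in *LDHB* are known for using it. Lactate crosses the membrane through monocarboxylate transporters, and pyruvate dehydrogenase kinases hold pyruvate back from mitochondria. Normal prostate epithelium is known for secreting citrate rather than burning it, and LNCaP cells are known for a largely oxidative metabolism.

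The promoters of *LDHA* and *LDHB* are shown because their transcripts, which encode subunits of the same enzyme, went apart in the deletion clones. Both are the 250 bases before an annotated transcript start in RefSeq, build GRCh38.p14, read 5′ to 3′ along the gene's strand. *LDHA* has 2 such windows, of which the first is shown, and its second window held 1 match, to GCGTG. The *LDHA* stretch is chr11:18394313-18394562 on the plus strand and the *LDHB* stretch is chr12:21657843-21658092 on the minus strand. Capitals mark ACGTG or GCGTG, the core letters of the hypoxia response element, found on either strand, and a CACGTG counts as a match on both strands.
LDHA: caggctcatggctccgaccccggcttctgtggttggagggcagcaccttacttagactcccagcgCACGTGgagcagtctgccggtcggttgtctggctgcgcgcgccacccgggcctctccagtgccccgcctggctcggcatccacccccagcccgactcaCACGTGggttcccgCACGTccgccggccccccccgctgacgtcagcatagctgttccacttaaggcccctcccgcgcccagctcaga
LDHB: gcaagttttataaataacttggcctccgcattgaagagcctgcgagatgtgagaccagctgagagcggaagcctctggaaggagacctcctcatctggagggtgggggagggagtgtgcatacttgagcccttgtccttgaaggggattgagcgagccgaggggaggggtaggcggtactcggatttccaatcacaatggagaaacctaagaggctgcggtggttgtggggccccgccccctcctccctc
The *LDHA* stretch held 5 matches, all to ACGTG, and the *LDHB* stretch held 0. Of the 35116 RefSeq windows of the same length, 18.5% held ACGTG, 32.2% held GCGTG and 43.2% held either. The *LDHA* stretch had 22 CG dinucleotides and the *LDHB* stretch had 9, beside a median of 11 over all windows. RefSeq windows were found for 9 of the 10 genes, *SLC16A1* being the other, and 6 of the 9 held a match in at least 1 of their windows, which numbered 1 to 7 per gene. *SLC2A1*, *PKM* and *LDHB*, the genes with only 1 window each, held none. The shares over all RefSeq windows count windows, while 6 of 9 counts genes, so these cannot be set against each other. A match is a description of letters, and binding at these promoters was not measured here.

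The libraries held 91074556 to 118877134 reads on genes. The sum of 8 luminal prostate markers, *KLK3* among them, was 324294 to 328162 normalized counts in del-4, 321004 to 330127 in del-56, and 321208 to 338542 in WT, while the 3 basal markers summed to at most 64.3 and the T cell marker *CD3E* stood at 0 in every library. The 3 blood cell markers, nearly all from the macrophage marker *CD68*, summed to 549 to 565 in del-4, 519 to 563 in del-56 and 486 to 519 in WT. The 3 fibroblast markers, nearly all from *COL1A1*, summed to 1106 to 1361 in del-4, 1193 to 1328 in del-56 and 941 to 1019.9 in WT, and the part of either list in the results was not tested. Of the read numbers from 1 to 20 in the table, 83.8% were even, so the mates of a pair were mostly counted as separate reads. In 126 of 127 pairs in which a gene with a mean of at least 500 lay inside a longer gene of the opposite strand without a shared exon base, the longer gene had the higher or equal value, and so it had in 22 of 26 such pairs of the same strand. Not every overlap went this way, since *LDHAL6A* stood at a mean of 31.3 although 1381 exon bases of *TSG101*, with a mean of 6017, lie within its span. Of the 10 genes, *SLC16A3* and *LDHB* have exons of another gene of the table within their span, and this is taken up with their values. Noncoding genes or pseudogenes, which the table does not hold, also have exons within the spans of *SLC2A1*, *HK1*, *PFKP*, *LDHA*, *SLC16A1* and *PDK1*. Their part in the counts was not tested.

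*LDHB* was the gene with by far the widest span of levels among the 10 genes, falling in the order WT, del-4 and del-56, while 5 of the other 9 genes rose modestly in del-4 and 6 in del-56. In del-4 against WT, 5 of the 9 genes other than *LDHB* rose and 0 fell at an adjusted p under 0.05, beside 20.5% of all 17401 genes tested that rose and 20.2% that fell (limma with Benjamini-Hochberg adjustment over all genes). In del-56 against WT, 6 of the 9 rose and 1 fell, beside 19.2% of 17481 genes that rose and 20.5% that fell. *SLC2A1*, *PKM*, *SLC16A1*, *SLC16A3* and *PDK1* rose in del-4, and these and *LDHA* in del-56, where *HK1* fell. The comparisons share the WT libraries, so their calls are not independent. The libraries of 6 of the 9 genes did not overlap those of WT in del-4, beside 49.5% of all genes, and those of 7 in del-56, beside 48.7%. The 9 genes had a median of 0.11 for del-4 and 0.14 for del-56, beside -0.0028 and -0.0011 over all genes tested. No change of the 9 genes was larger than 2-fold, and by a rule of p under 0.05 before adjustment and a change of over 2-fold, 0 of the 9 passed in either clone, beside 2.29% of all genes that rose and 3.52% that fell in del-4, the shares for del-56 being 2.69% and 3.25%. When libraries were rescaled to the same total, 3 of the 9 rose and 2 fell in del-4, and the share of rises among all called genes went from 50.3% to 32.4%.

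**Figure D1:**
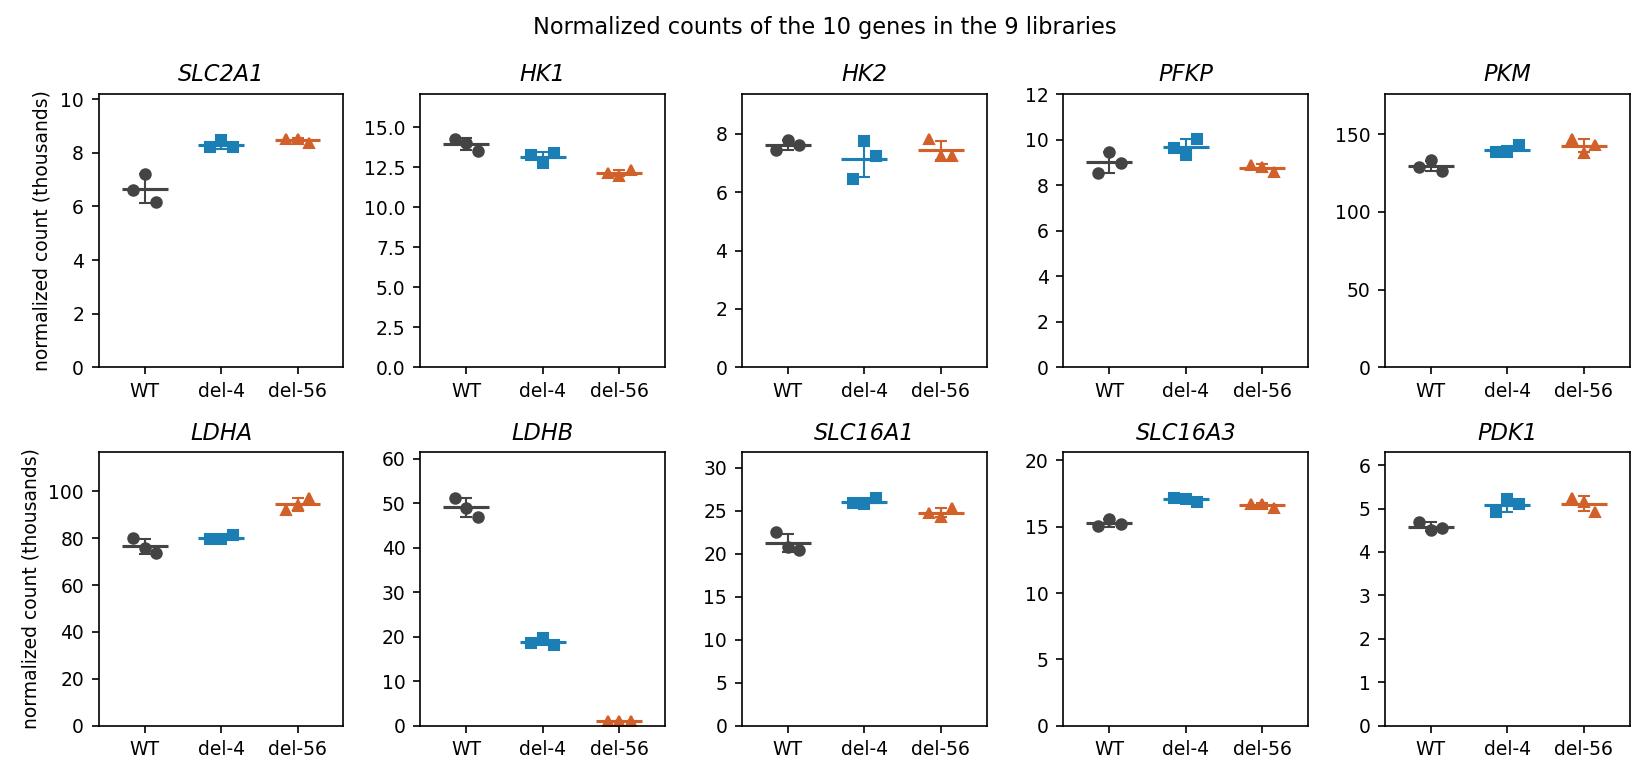
Normalized counts of the 10 genes, each gene in a panel with its own axis from 0, and 1 point per library, with the mean and SD of 3 cultures as a line and bar for WT, del-4 and del-56. *LDHB* drops from 46991 to 51306 in WT to at most 1152 in del-56, while the means of the other 9 genes lie between 0.871 and 1.27 times that of WT.

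*SLC2A1*, the basal glucose transporter GLUT1, was 1.24 times its WT level in del-4 and 1.27 times in del-56. Its normalized counts were 6611, 7225 and 6173 in the WT cultures, 8226, 8465 and 8206 in the del-4 cultures, and 8504, 8516 and 8381 in the del-56 cultures. All 6 deletion libraries lay above the WT libraries, and the WT cultures were the most spread of the 3 groups. The log2 fold change was 0.32 with an SE of 0.048 (adjusted p = 3.4e-05) for del-4 and 0.35 with an SE of 0.05 (adjusted p = 3.9e-05) for del-56 by limma. The genes around *SLC2A1* on chromosome 1 were shifted the same way, since the 50 nearest tested genes had a median of 0.24 for del-4 and 0.24 for del-56, with 43 and 40 of them above 0. The part of this stretch in the value of *SLC2A1* was not tested. In RNA measured in bulk, fewer cells of a type and less RNA per cell cannot be told apart.

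*HK1* and *HK2*, hexokinases that trap glucose as glucose 6-phosphate, were not called higher in either deletion clone. *HK1*, the isoform found in most tissues, had normalized counts of 14267, 14046 and 13517 in the WT cultures, 13278, 12745 and 13375 in the del-4 cultures, and 12177, 11954 and 12321 in the del-56 cultures. The libraries of both deletion clones lay below those of WT. *HK1* fell in del-56, with a log2 fold change of -0.20 with an SE of 0.037 (adjusted p = 4.4e-04), and in del-4 its log2 fold change was -0.086 with an SE of 0.036 (adjusted p = 0.066) by limma. In del-4 its adjusted p became 0.0013 with libraries at the same total and 0.014 with quantile normalization. *HK2*, the inducible isoform tied to high glycolytic flux in tumors, had normalized counts of 7456, 7783 and 7634 in the WT cultures, 6468, 7749.8 and 7248 in the del-4 cultures, and 7822, 7233 and 7244 in the del-56 cultures. Its libraries overlapped between all 3 clones, and del-4 had the largest spread between cultures, 9.03% of its mean. The log2 fold change of *HK2* was -0.10 with an SE of 0.052 (adjusted p = 0.16) for del-4 and -0.037 with an SE of 0.042 (adjusted p = 0.53) for del-56. Without del-4 replicate 2, the highest *HK2* value of that clone, the log2 fold change in del-4 was -0.15 (adjusted p = 0.022, limma), and at the same total it was -0.16 (adjusted p = 0.026, limma). The 50 tested genes around *HK2* on chromosome 2 had medians of -0.15 and -0.18.

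*PFKP*, the platelet-type subunit of phosphofructokinase, had normalized counts of 8549.5, 9479 and 8967 in the WT cultures, 9629, 9337 and 10024 in the del-4 cultures, and 8881, 8806 and 8573 in the del-56 cultures. The deletion libraries overlapped those of WT in both clones. Its log2 fold change was 0.10 with an SE of 0.042 (adjusted p = 0.06) for del-4 and -0.039 with an SE of 0.042 (adjusted p = 0.52) for del-56 by limma. In del-4 it reached 0.13 (adjusted p = 0.041, limma) without del-4 replicate 2 and 0.14 (adjusted p = 0.024, limma) without WT replicate 2.

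*PKM*, which encodes the pyruvate kinase isoforms M1 and M2 and is among the most highly expressed of the 10 genes, was 1.08 times its WT level in del-4 and 1.1 times in del-56. Its normalized counts were 129247, 133233 and 126672 in the WT cultures, 138432, 138731 and 143179 in the del-4 cultures, and 146920.0, 138227 and 142901 in the del-56 cultures. No deletion library was as low as the highest WT library. The log2 fold change was 0.11 with an SE of 0.041 (adjusted p = 0.04) for del-4 and 0.14 with an SE of 0.045 (adjusted p = 0.024) for del-56 by limma, but in del-4 quantile normalization turned it to -0.097 (adjusted p = 0.045) and in del-56 it gave 0.02 (adjusted p = 0.73). The call was also lost at the same total in del-4 (0.042, adjusted p = 0.37), without a filter on low values (adjusted p = 0.058 and 0.057), and without each of 4 single libraries in turn in del-4 and each of 2 in del-56, where the adjusted p lay between 0.056 and 0.18. Those libraries were del-4 replicates 1 and 3 and WT replicates 2 and 3 for del-4, and del-56 replicate 3 and WT replicate 3 for del-56. The isoforms M1 and M2 share this count and were not told apart.

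The lactate dehydrogenase genes went apart. *LDHB* lies on chromosome 12, positions 21635342 to 21757857 of GRCh38 on the minus strand in GENCODE 44, and *LDHA* on chromosome 11, positions 18394560 to 18408425 on the plus strand. *LDHB* had normalized counts of 51306, 49048 and 46991 in the WT cultures, 18708, 19669 and 18255 in the del-4 cultures, and 1072, 1064 and 1152 in the del-56 cultures. The 3 groups did not overlap, and within each clone the cultures differed by at most 4.42% of their mean (SD). The means were 49115 ± 2158 for WT, 18877 ± 722 for del-4 and 1096 ± 48.4 for del-56 (SD, n = 3 cultures each). *LDHB* was 2.6-fold lower than WT in del-4 and 44.8-fold lower in del-56, and del-4 stood 17.2-fold above del-56. On the log2 scale these differences were -1.38 (SE 0.040), -5.48 (SE 0.045) and 4.11 (SE 0.048). No test is given for them, since the genes were chosen on these values. Every *LDHB* value rested on at least 950 reads, so the transcript was still measured in every del-56 library.

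*LDHA*, the subunit known for making lactate, was not lower where *LDHB* was lowest. Its normalized counts were 79925, 75982 and 73642 in the WT cultures, 79576, 79810.2 and 81154 in the del-4 cultures, and 91976, 94159 and 97312 in the del-56 cultures. The del-56 libraries lay above all others, and the del-4 libraries overlapped those of WT. *LDHA* rose in del-56, with a log2 fold change of 0.30 with an SE of 0.044 (adjusted p = 4.2e-05), and in del-4 its log2 fold change was 0.068 with an SE of 0.04 (adjusted p = 0.19) by limma. The value in del-4 was -0.0011 (adjusted p = 0.99) at the same total, -0.098 (adjusted p = 0.018) with quantile normalization and 0.10 (adjusted p = 0.031) without WT replicate 1. Set side by side without a test, *LDHA* in del-4 stood below del-56 by a log2 difference of -0.24 (SE 0.039).

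Levels of the subunits can be compared with each other only per length, here as normalized count per kilobase of merged exons. *LDHA* stood at 12698 ± 527 for WT, 13306 ± 141 for del-4 and 15679 ± 445 for del-56 (SD, n = 3). *LDHB* stood at 16465 ± 723, 6328 ± 242 and 367 ± 16.2. The share of *LDHB* in the sum of both was 56.5, 56.6 and 56.3% in the WT libraries, 32.2, 33.2 and 31.2% in the del-4 libraries and 2.3, 2.23 and 2.34% in the del-56 libraries. *LDHB* was thus the larger part in WT, the smaller part in del-4 and a small remainder in del-56. The sum of *LDHA* and *LDHB* per kilobase was 29163 ± 1248 for WT, 19634 ± 185 for del-4 and 16047 ± 459 for del-56, so the higher *LDHA* level in del-56 was smaller than the loss of *LDHB*. With the length of the canonical transcript in place of merged exons the shares were 52.5% for WT, 28.8% for del-4 and 1.96% for del-56. These are shares of transcript reads, and protein levels are not analysed here.

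**Figure D2:**
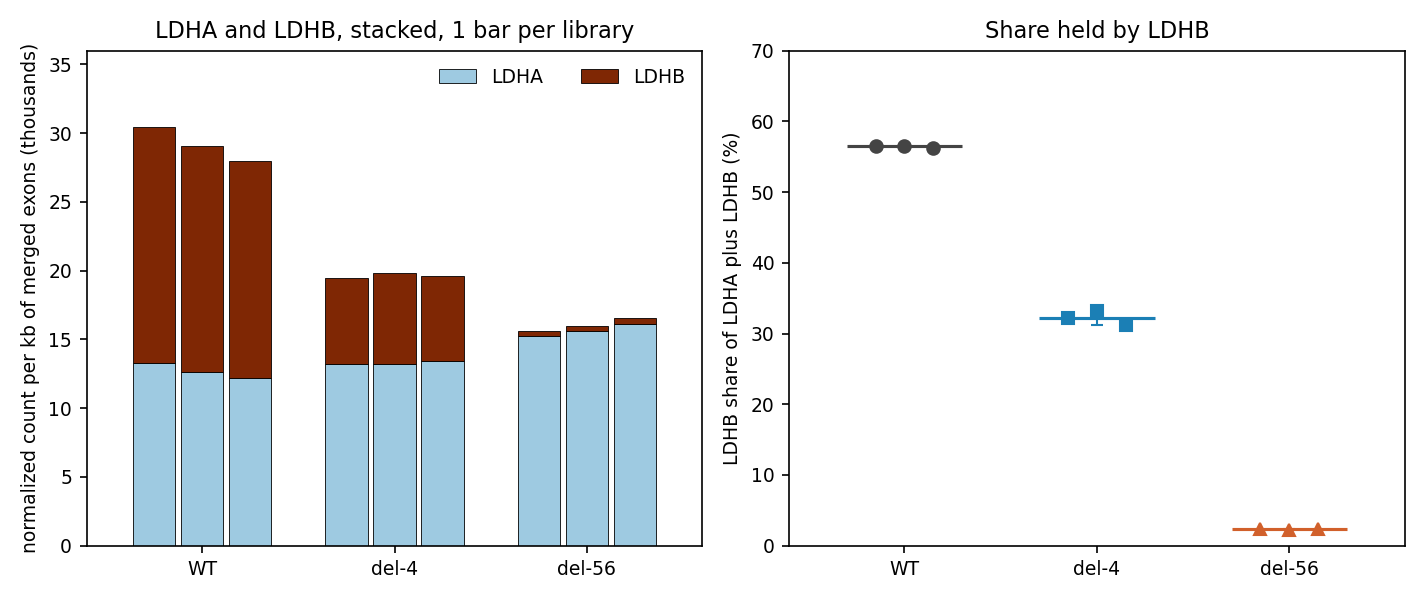
Left, *LDHA* and *LDHB* stacked as normalized counts per kilobase of merged exons, 1 bar per library; right, the percentage of *LDHB* in the sum, 1 point per library with mean and SD of 3 cultures. *LDHB* holds 56.3% to 56.6% in WT, 31.2% to 33.2% in del-4 and 2.23% to 2.34% in del-56.

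Ordered by this measure in WT, *LDHB* (16465 ± 723), *PKM* (15133 ± 386) and *LDHA* led the 10 genes, followed by *SLC16A1* (3345 ± 171), *HK1*, *SLC16A3*, *HK2*, *PFKP*, *SLC2A1* and *PDK1* (309 ± 6.71). *HK2*, *PFKP* and *SLC2A1* lay between 1288 and 1008. In del-56, *LDHB* stood at 367 per kilobase, next to *PDK1* at 345. Per kilobase of canonical transcript, *PKM* stood above *LDHB* in WT, *SLC16A3* above *SLC16A1*, and *PFKP* and *SLC2A1* above *HK2*, so the order depends on the length used, and the place of *SLC16A3* rests on reads that cannot be assigned to it.

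The 50 tested genes nearest to *LDHB* on chromosome 12 had a median of -0.045 for del-4 and -0.037 for del-56. The nearest protein-coding gene before it, *GYS2*, which encodes liver glycogen synthase and starts 30495 bases away, had a mean of at most 1.27 normalized counts in any clone. The nearest one after it, *KCNJ8*, a potassium channel gene 7098 bases beyond the end of the annotated *LDHB* span, stood at 9.66, 7.72 and 3.77 in WT and at 0 in all 6 deletion libraries, where a count of 0 allows up to 3 counted fragments. *KCNJ8* begins at position 21764955, while the *LDHB* promoter stretch shown above lies inside the span, at 21657843 to 21658092, and so farther away. Among the 5 protein-coding genes on each side, 6 with means from 1590.5 to 8188 in each clone had log2 fold changes from -0.25 to 0.19 in del-4 and from -0.23 to 0.19 in del-56. Chosen after their values were seen, *RECQL*, *GOLT1B*, *CMAS* and *ST8SIA1* fell in del-4 (adjusted p = 0.003, 0.013, 4.2e-05 and 0.0052, limma), *PYROXD1* and *RECQL* fell in del-56 (adjusted p = 0.0018 and 0.0011, limma), and *C2CD5* rose in both (adjusted p = 0.014 and 0.021, limma). *ABCC9*, a regulatory subunit gene of potassium channels that was chosen likewise, fell from a mean of 25.4 in WT to 1.97 in the del-4 cultures and 2.43 in the del-56 cultures, at log2 fold changes of -3.03 and -3.59 (adjusted p = 7.2e-04 and 0.0028, limma). *SPX* had means of 12.9, 2.01 and 0.636 in the same order and log2 fold changes of -2.41 and -2.83 (adjusted p = 0.061 and 0.027, limma), with libraries that overlapped those of WT, and all of these values rest on few reads.

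*LDHB* shares reads with ENSG00000285854, a readthrough gene of the same strand that runs from *LDHB* into the *GYS2* locus. The ratio of *LDHB* to it lay between 0.9996 and 1.004 in the 9 libraries, so the pair is the same set of reads and cannot be told apart. Among 15372 other genes with a mean of at least 10, the profile most like that of *LDHB* over the 9 libraries was this gene. The next by root mean square difference of centred log2 values were *NIBAN1* (0.51), *CNTN4* (0.65), *TSPOAP1* (0.70) and *SDK1* (0.76), on chromosomes 1, 3, 17 and 7. *NIBAN1* had means of 766 for WT, 219.7 for del-4 and 28.7 for del-56, and *SDK1* had 401, 269 and 29.0. All of them stood highest in WT and lowest in del-56, which is how they were found, and the 9 libraries make only 3 clones.

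Of the lactate transporters, *SLC16A1*, the monocarboxylate transporter MCT1 that moves lactate in either direction, rose in both clones. Its normalized counts were 22468, 20758 and 20462 in the WT cultures, 25899, 25752 and 26506 in the del-4 cultures, and 24666, 24274 and 25276 in the del-56 cultures. All deletion libraries lay above all WT libraries. The log2 fold change was 0.30 with an SE of 0.038 (adjusted p = 6.4e-06) for del-4 and 0.22 with an SE of 0.041 (adjusted p = 4.1e-04) for del-56 by limma. *SLC16A1* also lies on chromosome 1, in a stretch whose 50 nearest tested genes had medians of 0.19 for del-4 and 0.21 for del-56, with 39 and 40 of them above 0, and the part of that stretch was not tested.

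*SLC16A3*, the lactate exporter MCT4, had normalized counts of 15029, 15590.5 and 15179.5 in the WT cultures, 17193, 17073 and 16892 in the del-4 cultures, and 16684, 16737 and 16419.7 in the del-56 cultures. The deletion libraries lay above those of WT, with log2 fold changes of 0.16 with an SE of 0.034 (adjusted p = 8.6e-04) for del-4 and 0.12 with an SE of 0.035 (adjusted p = 0.011) for del-56 by limma. At the same total the value in del-56 was 0.093 (adjusted p = 0.051). These reads cannot be assigned to MCT4. The span of *SLC16A3* shares 22107 bases with *CSNK1D*, a casein kinase gene on the opposite strand, and the ratio of *SLC16A3* to *CSNK1D* lay between 0.879 and 0.891 in all 9 libraries. The log2 fold change of *CSNK1D* was 0.15 (SE 0.034) in del-4 and 0.12 (SE 0.035) in del-56, and without *SLC16A3* 4 genes rose in del-4 and 5 in del-56.

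*PDK1*, the pyruvate dehydrogenase kinase that HIF-1 is known to induce, rose slightly in both clones. Its normalized counts were 4699, 4512 and 4547 in the WT cultures, 4913, 5218 and 5114 in the del-4 cultures, and 5252, 5163 and 4928 in the del-56 cultures. The deletion libraries lay above those of WT by 4913 against 4699 at the closest. The log2 fold change was 0.15 with an SE of 0.042 (adjusted p = 0.0085) for del-4 and 0.16 with an SE of 0.043 (adjusted p = 0.0087) for del-56 by limma, and at the same total the value in del-4 was 0.078 (adjusted p = 0.17). The 50 tested genes around *PDK1* on chromosome 2 had medians of the other sign, -0.074 and -0.09.

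**Figure D3:**
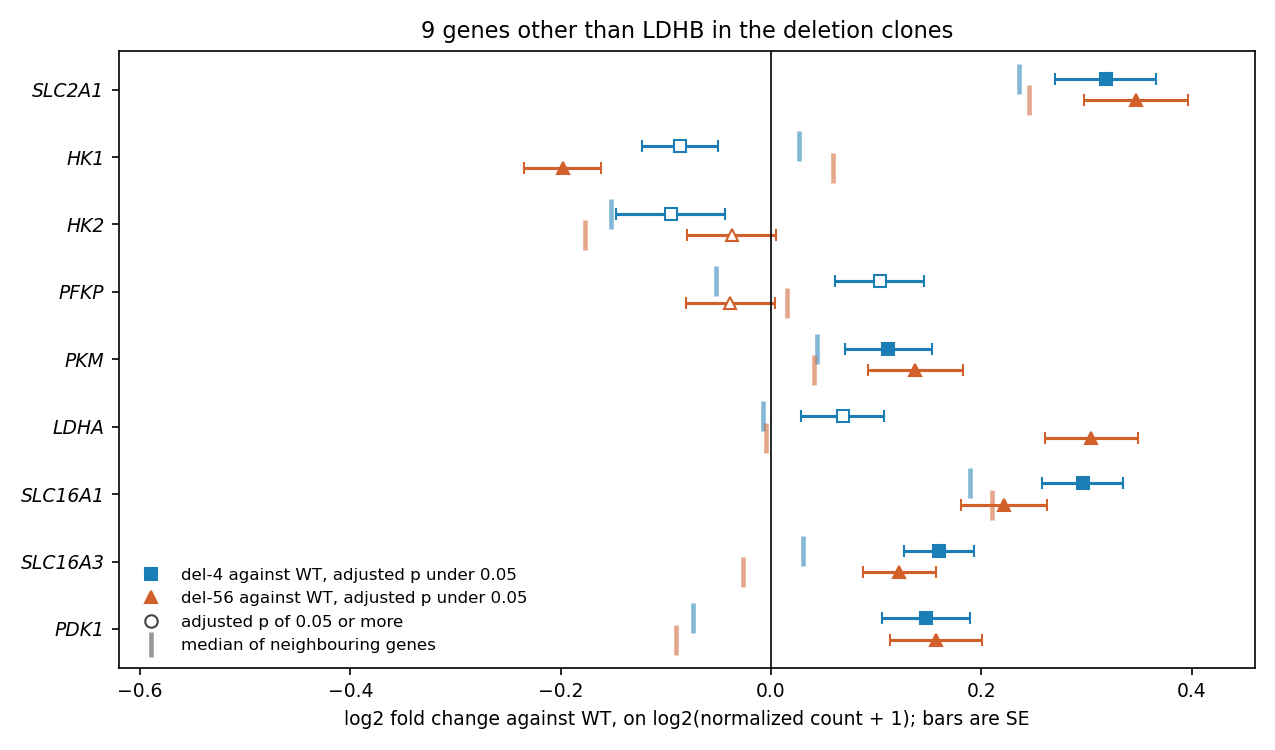
Log2 fold change against WT with SE for the 9 genes other than *LDHB*, in del-4 (squares) and del-56 (triangles), filled where the adjusted p was under 0.05; vertical ticks show the median of up to 50 neighbouring genes. The neighbours of *SLC2A1* and *SLC16A1* have medians of 0.19 to 0.24, the highest among these 9 genes, and *LDHA* rises in del-56 beside a median of -0.0051.

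Between the deletion clones, the 9 genes are described without a test. The libraries of *LDHA*, *HK1*, *PFKP*, *SLC16A1* and *SLC16A3* did not overlap between del-4 and del-56, beside 34.7% of 17447 genes. *LDHA* was lower in del-4, and *HK1*, *PFKP*, *SLC16A1* and *SLC16A3* were higher, by log2 differences of 0.11, 0.14, 0.075 and 0.038. *SLC2A1*, *HK2*, *PKM* and *PDK1* overlapped.

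The genes around these 10 in metabolism were followed as 75 further genes in 6 lists. Of these, 73 were tested in del-4, where 18 rose and 14 fell, and 72 in del-56, where 20 rose and 15 fell. As shares these are 24.7% and 19.2% of the listed genes for del-4, and 27.8% and 20.8% for del-56, set against 20.5% and 20.2% of all genes in the first clone and 19.2% and 20.5% in the second. Their median was -0.022 for del-4 and 0.023 for del-56. *HK3* rose in del-4 and fell in the other clone. At the same total, 25 of the 73 fell in del-4. Falls also became more common among all genes there, 4932 of 17391 against 3517 of 17401 before the rescaling. Of the 75 genes, 28 have exons of another gene of the table within their span, and without them 7 fell in del-4 and 6 in del-56. These counts come from a shorter list, so they cannot be set directly against the 14 and 15 falls above.

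**Figure D4:**
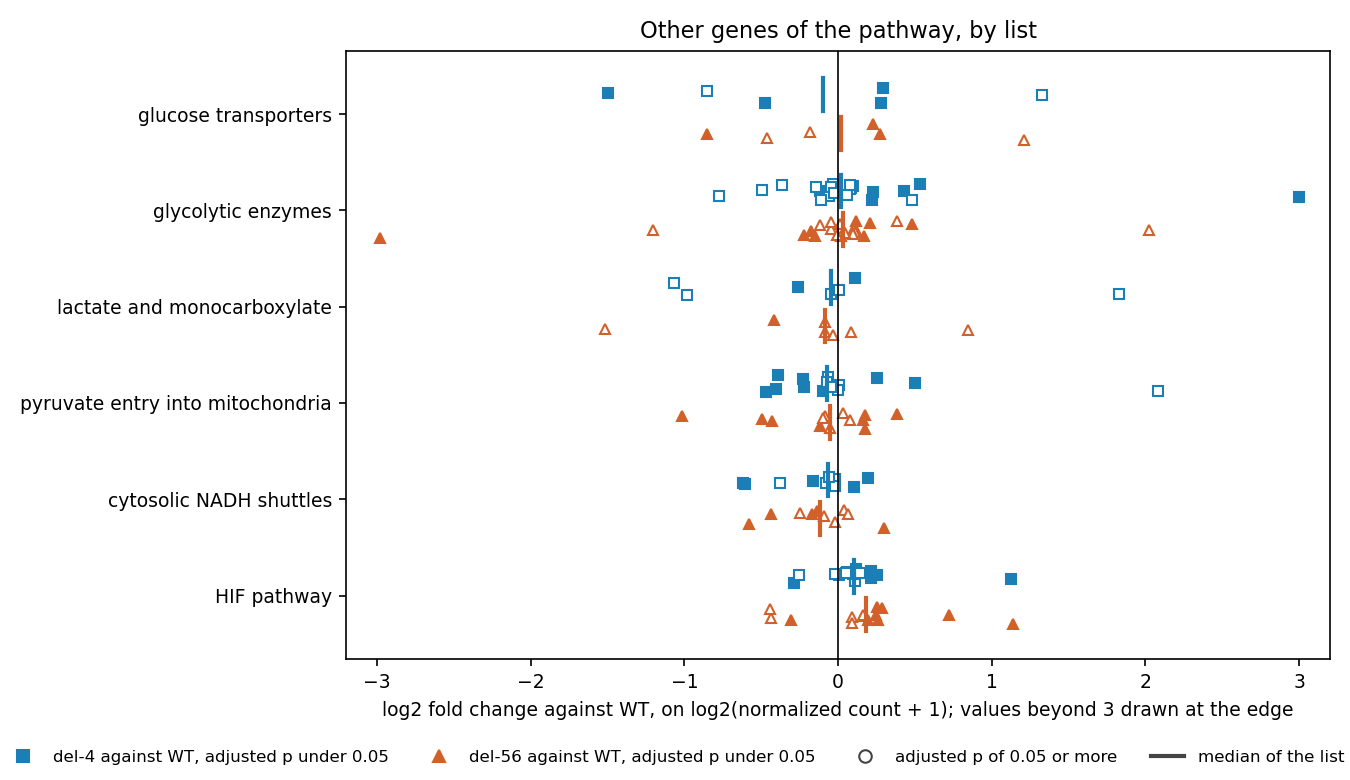
Log2 fold change against WT of the 75 other pathway genes by list, 1 point per tested gene in del-4 (squares) and del-56 (triangles), filled where the adjusted p was under 0.05, with the median of each list as a bar. Most points lie within 0.5 of 0, and *HK3* is drawn at or near both edges.

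Of the other glucose transporters, 2 rose and 2 fell of 6 tested in del-4, and 2 rose and 1 fell in del-56. Among all genes tested, 20.5% rose and 20.2% fell in del-4, and 19.2% rose and 20.5% fell in del-56. *SLC2A6* rose by 0.29 and 0.27 and *SLC2A8* by 0.28 and 0.23 on the log2 scale in del-4 and del-56. *SLC2A12*, the transporter GLUT12, had normalized counts of 1984, 1909 and 1775 in the WT cultures, 686, 628 and 690.1 in the del-4 cultures, and 932, 1070.3 and 1148 in the del-56 cultures. The 3 clones did not overlap, and its log2 fold change was -1.50 with an SE of 0.075 (adjusted p = 3.1e-11) for del-4 and -0.85 with an SE of 0.08 (adjusted p = 5.3e-07) for del-56 by limma. The last 2852 bases of *SLC2A12* and of *TBPL1* overlap on opposite strands, and the ratio of their counts went from 0.333 to 0.69 over the libraries. The 50 neighbours of *SLC2A12* on chromosome 6 had medians of -0.22 and -0.11. *SLC2A4*, the insulin-responsive GLUT4, fell in del-4, at -0.47 with an SE of 0.11 (adjusted p = 0.0025), and stood at -0.19 with an SE of 0.12 (adjusted p = 0.23) in del-56. *SLC2A3*, the neuronal GLUT3, was low and spread, at 5.8, 61.8 and 45.2 in WT and between 40.3 and 89.6 in the deletion libraries, and its adjusted p was 0.086 for del-4 and 0.12 for del-56 (limma). The values rest on single WT libraries, since without WT replicate 2 *SLC2A3* was called in both clones, at log2 fold changes of 1.94 and 1.82 (adjusted p = 0.027 and 0.04, limma), and with 1 library left out at a time these ranged from 0.33 to 1.94 for del-4 and 0.21 to 1.82 for del-56.

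Of 22 other glycolytic enzymes, 6 rose and 1 fell in del-4 and 5 rose and 4 fell in del-56, with medians of 0.018 and 0.031 on the log2 scale. As shares these are 27.3% and 4.55% in del-4, beside 20.5% and 20.2% of all genes. For del-56 they are 22.7% and 18.2%, beside 19.2% and 20.5%. *ENO1*, enolase, had normalized counts of 162766, 158205 and 150017 in the WT cultures, 204526, 209811 and 218830.1 in the del-4 cultures, and 222420.4, 215396 and 220591 in the del-56 cultures. Every deletion library exceeded every WT library, and its log2 fold change was 0.43 with an SE of 0.047 (adjusted p = 9.7e-07) for del-4 and 0.48 with an SE of 0.049 (adjusted p = 1.1e-06) for del-56 by limma. *ENO1* lies on chromosome 1 as well, and its 50 neighbours had medians of 0.17 and 0.20. *GAPDH*, often used as a reference transcript, rose by 0.23 and 0.21 on the log2 scale, and *ALDOA*, the main aldolase, fell by 0.12 and 0.15, with reads that cannot be told apart from those of ENSG00000285043, a gene of the same strand (count ratio 0.997 to 0.999). The 50 neighbours of *ALDOA* on chromosome 16 had medians of -0.32 and -0.35, with 48 and 49 of them below 0, and the part of that stretch was not tested. *HK3*, the hexokinase of white blood cells, was scarce in WT at 27.1, 13.5 and 19.8 normalized counts, stood at 365, 359 and 331 in del-4 and had at most 4 reads in any del-56 library. The sum of the 3 blood cell markers, nearly all from *CD68*, was higher in del-4 (549 to 565) than in WT (486 to 519) without overlap. In del-56, where *HK3* was nearly absent, that sum was 519 to 563. *CD3E* stood at 0 in every library and *PTPRC*, the common leukocyte marker, at no more than 3.87. The part of blood cells in the *HK3* value was not tested. *PKLR*, the liver and red cell pyruvate kinase, had at most 23.2 normalized counts in any library and was not called.

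Of 7 tested lactate and monocarboxylate genes, 1 rose and 1 fell in del-4, and 0 rose and 1 fell in del-56. As shares these are 14.3% and 14.3% in del-4, beside 20.5% and 20.2% of all genes tested. For del-56 they are 0% and 14.3%, beside 19.2% and 20.5%. *SLC16A7*, the pyruvate and lactate transporter MCT2, fell in both, from 1726, 1562 and 1670.4 in the WT cultures to 1429, 1277 and 1432 in the del-4 cultures and 1366, 1169 and 1179 in the del-56 cultures, with log2 fold changes of -0.26 with an SE of 0.068 (adjusted p = 0.0049) for del-4 and -0.42 with an SE of 0.075 (adjusted p = 3.4e-04) for del-56 by limma. *LDHAL6A*, a testis-type lactate dehydrogenase gene, stayed low, with at most 51.2 normalized counts in any library and lower values in del-4 (15.4, 23.9 and 18.1) than in WT (51.2, 33.8 and 32.1; log2 fold change -0.98 with an SE of 0.39 (adjusted p = 0.052)). It was called in del-4 with a pseudocount of 5 (adjusted p = 0.033), at the same total (0.036), in one fit of all 9 libraries (0.035) and without del-4 replicate 2 (0.046), all by limma. *SLC16A8* had at most 43.4 normalized counts and was not called.

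Pyruvate entry into mitochondria was the list with the most falls in del-4, 6 of 14, beside 2 rises, and in del-56 4 fell and 4 rose of 13. Over all genes tested, 20.2% fell and 20.5% rose in del-4, and 20.5% fell and 19.2% rose in del-56. *DLD*, the E3 subunit of pyruvate dehydrogenase and related complexes, had normalized counts of 21149, 20825 and 21006 in the WT cultures, 16057, 16021 and 15996 in the del-4 cultures, and 13762, 16028 and 15041 in the del-56 cultures. Its deletion libraries lay below WT without overlap, and its log2 fold change was -0.39 with an SE of 0.032 (adjusted p = 2.9e-08) for del-4 and -0.49 with an SE of 0.047 (adjusted p = 5.6e-07) for del-56 by limma. *PDK2*, the widely expressed pyruvate dehydrogenase kinase, fell while *PDK1* rose, with normalized counts of 1544, 1662 and 1504 in the WT cultures, 1184, 1193 and 1023 in the del-4 cultures, and 815, 777 and 732 in the del-56 cultures and log2 fold changes of -0.47 with an SE of 0.075 (adjusted p = 5.8e-05) for del-4 and -1.02 with an SE of 0.076 (adjusted p = 3.8e-08) for del-56. *MPC2*, a subunit of the mitochondrial pyruvate carrier, rose from 49727, 49766 and 44902 in the WT cultures to 68237, 68133 and 67622 in the del-4 cultures and 59401, 64716 and 64507 in the del-56 cultures, with log2 fold changes of 0.50 with an SE of 0.042 (adjusted p = 2.9e-08) for del-4 and 0.39 with an SE of 0.048 (adjusted p = 1.0e-05) for del-56 by limma. *MPC2* and *DCAF6* overlap by 1290 bases on opposite strands with a count ratio of 1.08 to 1.15, *PDK2* and *SAMD14* by 2113 bases and *DLD* and *LAMB1* by 7932, where *LAMB1* had few reads. *PDHX*, the E3-binding subunit, and *PDPR*, the regulatory subunit of pyruvate dehydrogenase phosphatase, fell in both clones as well, and *PC*, pyruvate carboxylase, rose in both. The 50 neighbours of *PDPR* on chromosome 16 had medians of -0.29 and -0.29, while those of *MPC2* on chromosome 1 had medians of the other sign than *MPC2*, -0.19 and -0.17.

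Of 10 genes of the shuttles that carry electrons of cytosolic NADH into mitochondria, 2 rose and 3 fell in del-4 and 1 rose and 4 fell in del-56. As shares these are 20% and 30% in del-4, beside 20.5% and 20.2% of all genes tested. For del-56 they are 10% and 40%, beside 19.2% and 20.5%. *GOT2*, the mitochondrial aspartate aminotransferase of the malate-aspartate shuttle, had normalized counts of 26299.9, 26065 and 25682 in the WT cultures, 16640.4, 16793 and 17442 in the del-4 cultures, and 17718, 17412 and 17117 in the del-56 cultures. Its deletion libraries lay below those of WT without overlap, and its log2 fold change was -0.62 with an SE of 0.034 (adjusted p = 1.1e-10) for del-4 and -0.58 with an SE of 0.035 (adjusted p = 2.7e-09) for del-56 by limma. The 50 tested genes around *GOT2* on chromosome 16 were shifted too, with medians of -0.31 and -0.21. *GPD2*, the mitochondrial enzyme of the glycerol phosphate shuttle, fell from 6368, 5956 and 6046 in the WT cultures to 4041, 3994 and 4039.9 in the del-4 cultures and 4528, 4490.0 and 4533 in the del-56 cultures, at -0.60 with an SE of 0.041 (adjusted p = 2.1e-09) for del-4 and -0.44 with an SE of 0.042 (adjusted p = 6.2e-07) for del-56. *GPD1*, its cytosolic partner, stood at log2 fold changes of -0.38 (adjusted p = 0.13) in del-4 and -0.25 (adjusted p = 0.38) in del-56 (limma), and the related *GPD1L* rose by 0.20 and 0.30.

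Hypoxia-inducible factor (HIF) is the best known activator of several of the 10 genes, *LDHA*, *SLC2A1*, *SLC16A3* and *PDK1* among them. Of 14 genes of the HIF pathway, 5 rose and 1 fell in del-4 and 8 rose and 1 fell in del-56, with medians of 0.10 and 0.18. These counts are 35.7% and 7.14% in del-4, beside 20.5% and 20.2% of all genes tested. In del-56 they are 57.1% and 7.14%, beside 19.2% and 20.5%. The part of HIF in these values was not tested. *EPAS1*, the HIF-2 alpha subunit, was low but higher in both deletion clones, with normalized counts of 58, 40.5 and 56.6 in the WT cultures, 140.2, 102 and 100.4 in the del-4 cultures, and 124, 141 and 83.7 in the del-56 cultures and log2 fold changes of 1.13 with an SE of 0.26 (adjusted p = 0.002) for del-4 and 1.14 with an SE of 0.27 (adjusted p = 0.0035) for del-56 by limma. *NDRG1*, a hypoxia and androgen responsive gene, had normalized counts of 7333, 8326 and 6959.6 in the WT cultures, 8829, 8765 and 8592 in the del-4 cultures, and 12031, 12505 and 12592 in the del-56 cultures. The del-56 libraries stood well above the others, and its log2 fold change was 0.22 with an SE of 0.051 (adjusted p = 0.0024) for del-4 and 0.72 with an SE of 0.054 (adjusted p = 3.5e-08) for del-56. Without a filter on low values the adjusted p of *NDRG1* in del-4 was 0.096 (limma). *EGLN1*, the prolyl hydroxylase PHD2 that marks HIF alpha for decay, fell in both, at -0.29 with an SE of 0.038 (adjusted p = 7.2e-06) for del-4 and -0.31 with an SE of 0.041 (adjusted p = 2.1e-05) for del-56, though a readthrough gene of the same strand, ENSG00000287856, holds the same reads in a ratio of 0.854 to 0.886. *VHL*, which binds the marked subunit, and *ARNT*, its partner HIF-1 beta, rose in both, *VHL* by 0.22 and 0.26 and *ARNT* by 0.25 and 0.19 on the log2 scale. In del-4 and del-56, *HIF1A* stood at 0.0077 and 0.16, *VEGFA* at 0.099 and 0.25 and *P4HA1* at 0.053 and 0.28. *ADM* stood at 0.06 and -0.44, *EGLN3* at -0.023 and 0.088 and *EGLN2* at 0.11 and 0.092. *BNIP3* rose by 0.11 and 0.25, *ANKRD37* stood at 0.14 and 0.16, and *CA9* had a mean of 1.14 normalized counts.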

How the data were processed

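RNA-seq of 3 cultures each of the LNCaP clones del-4, del-56 and WT was used. The authors trimmed paired-end reads of strand-specific polyA libraries with Trim Galore 0.6.5, aligned them to GRCh38 with STAR 2.71a and counted them on protein-coding genes of GENCODE 38 with bedtools 2.27.1 multicov. Versions are from the submitters' processing notes. The deposited signal values are normalized counts, reads divided by 1 DESeq2 size factor per library (0.825 to 1.06), and 100.0% came out whole within 0.001. Symbols and positions of 19905 of 19984 genes were matched to GENCODE 44.

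Each deletion clone was compared with WT on log2(normalized count + 1) with limma 3.58.1 (R 4.3.3, variance trend), keeping genes whose mean over the 6 libraries was 1 or more, and fold changes are on that scale. A gene was called at a Benjamini-Hochberg adjusted p under 0.05 over all genes. Named genes were the 10 genes, the 3 per list with the largest absolute mean of both log2 fold changes among means of at least 10, the nearest protein-coding gene on each side of *LDHB* and the 5 with profiles most like it. Others called in both clones, and the remaining genes of the HIF list, were named after their values were seen. The genes and lists were chosen with earlier results of these data known. Scripts were tested on simulated data. A further luminal marker is not reported here. Alternatives included edgeR 4.0.16 and DESeq2 1.42.0 on the recovered counts.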

Additional observations from a re-analysis of the deposited data

Results flagged for a closer look

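*HK3* moved to opposite sides of WT in the deletion clones in every library. Against WT, del-4 stood at a log2 fold change of 4.11 (SE 0.26) and del-56 at -2.98 (SE 0.73). The normalized counts were 365, 359 and 331 in del-4, 0, 4.02 and 2.43 in del-56, and 27.1, 13.5 and 19.8 in WT, so the value in del-56 rests on a handful of reads. The difference between the clones was not tested. The 50 tested genes around *HK3* on chromosome 5 had medians of -0.0087 for del-4 and 0.05 for del-56.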

How the results depend on the processing

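Counts of called genes moved most with the rule and the scaling. By the 2-fold rule (unadjusted p under 0.05), 0 of the 9 genes other than *LDHB* rose in del-4, 0 rose in del-56 and 0 fell in del-56, and of the other pathway genes 4 rose and 1 fell in del-4 and 2 rose and 3 fell in del-56. At the same total, 3 of the 9 rose and 2 fell in del-4, and 25 other pathway genes fell. Over all genes 4932 of 17391 fell at the same total in del-4, against 3517 of 17401 before. Quantile normalization gave 3 falls among the 9 in del-4. Without a filter on low values 11 other pathway genes rose in del-4, where fewer genes were called overall. Without genes whose span holds exons of another gene, an alternative chosen after seeing the data, 7 other pathway genes fell in del-4 and 6 in del-56. That list is shorter by 28 of the 75 genes. Leaving out 1 library at a time gave between 0 and 1 falls among the 9 in del-4, the single fall (*HK2*) coming without del-4 replicate 2.

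The share of *LDHB* in *LDHA* plus *LDHB* without division by length was 39.1% for WT, 19.1% for del-4 and 1.15% for del-56, and 52.5%, 28.8% and 1.96% with canonical transcript length, also chosen after seeing the data. *LDHB* in del-4 was -1.45 at the same total. The sign turned for *PKM* in del-4 with quantile normalization (-0.097), for *LDHA* in del-4 at the same total (-0.0011) and with quantile normalization (-0.098), for *PKLR* in del-56 with quantile normalization (0.035) and with 1 library left out (-0.34 to 0.26), and for *LDHAL6A* in del-56 with 1 library left out (-0.21 to 0.12). The cause was not tested. *SLC2A1* and *SLC16A1* in both clones and *LDHA* and *HK1* in del-56 kept direction and call under every alternative run other than the 2-fold rule, which none of them passed.

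Replicate numbers did not pair the cultures, since deviations of same-numbered libraries correlated between -0.033 and 0.027. With the replicate block, 4 of the 9 genes rose in del-4 and 5 in del-56, *PKM* being lost in both (adjusted p = 0.059 and 0.11, limma), 1 fell in del-56, and of the named genes only *SLC2A3* in del-4 was gained (1.33, adjusted p = 0.011). No count moved by over 1.5 times. Exact permutation tests of 3 libraries against 3 cannot go below p = 0.1 and were not used.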
